A study of Mus musculus with 3 samples.

Results

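Intercalated cells are the acid- and base-transporting cells of the kidney's collecting system. They were picked from 3 single-cell RNA-seq libraries of mouse kidney as the barcodes with at most 50% of counts from mitochondrially encoded (mt-) genes, at least 3 UMIs (unique molecular identifiers, each standing for 1 captured transcript) summed over 9 marker genes, and at least 2 of those genes detected. The 9 genes were Slc26a4, Slc4a9, Atp6v0d2, Atp6v1g3, Foxi1, Slc4a1, Aqp6, Hepacam2 and Insrr. The rule found 418 intercalated barcodes among the 22063 barcodes within the mitochondrial limit.

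All animals were male mice. The libraries came from a kidney preparation of aged mice (20 months) given D+Q, of aged mice (20 months) given vehicle, and of young mice (3 to 4 months), with 1 library per group; the labels do not spell out D+Q, which in ageing research usually stands for the senolytic pair dasatinib and quercetin. Kidneys were minced, digested with collagenase II, strained, freed of red cells by lysis and loaded for droplet 3′ libraries read as paired ends. With 1 library per group, no difference between groups has a replicate check, and nothing in the labels says how many animals went into a library.

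Intercalated cells secrete acid or bicarbonate with a vacuolar proton pump (V-ATPase) made of a soluble V1 part that splits ATP and a membrane V0 part that carries protons. Type A cells place the pump on the urinary side and export bicarbonate to blood through the anion exchanger AE1 (Slc4a1), while type B cells secrete bicarbonate through pendrin (Slc26a4) and carry the exchanger AE4 (Slc4a9) on the blood side. Foxi1, a forkhead transcription factor, is required for the intercalated fate in mouse kidney, and principal cells, the neighbours in the same epithelium, reabsorb water and sodium through Aqp2, Aqp3 and the epithelial sodium channel.

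Intercalated barcodes numbered 107 of 7888 barcodes in the aged D+Q library, 103 of 5945 in the aged vehicle library and 208 of 8230 in the young library. Their shares were 1.36% (95% exact Clopper-Pearson interval 1.11 to 1.64%) in the aged D+Q library, 1.73% (1.42 to 2.10%) in the aged vehicle library and 2.53% (2.20 to 2.89%) in the young library. All intervals here cover counting error only. The young share lay above both aged shares beyond counting error, and the intervals of the aged libraries overlapped. The median depth was 2874 UMIs per intercalated barcode in the aged D+Q library, 3523 in the aged vehicle library and 3371.5 in the young library, against 2305, 1887 and 2406.5 over all barcodes of the same libraries. Since a gate that counts UMIs takes up deeper barcodes more readily, each barcode was also thinned to 1000 UMIs; the share that then passed the gate was 0.639% (lowest and highest of 20 draws 0.583 and 0.710%) in the aged D+Q library, 0.588% (0.505 and 0.706%) in the aged vehicle library and 1.27% (1.14 and 1.37%) in the young library. The young share again stood above both aged shares, and the order of the aged shares was the other way round within overlapping draws. Principal cell barcodes (at least 3 UMIs and 2 genes among Aqp2, Aqp3, Aqp4, Fxyd4, Avpr2, Scnn1b, Scnn1g and Hsd11b2, and not intercalated) numbered 235 in the aged D+Q library, 126 in the aged vehicle library and 293 in the young library. This left 45.5 intercalated per 100 principal barcodes in the aged D+Q library, 81.7 in the aged vehicle library and 71.0 in the young library. With an intercalated gate of 5 UMIs and 3 genes these numbers were 27.8, 44.9 and 50.97, so the order of the aged vehicle and young libraries turned round. No barcode sequence was shared between libraries by 2 intercalated barcodes; 28 to 38 sequences were shared between pairs of whole libraries.

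**Figure D1:**
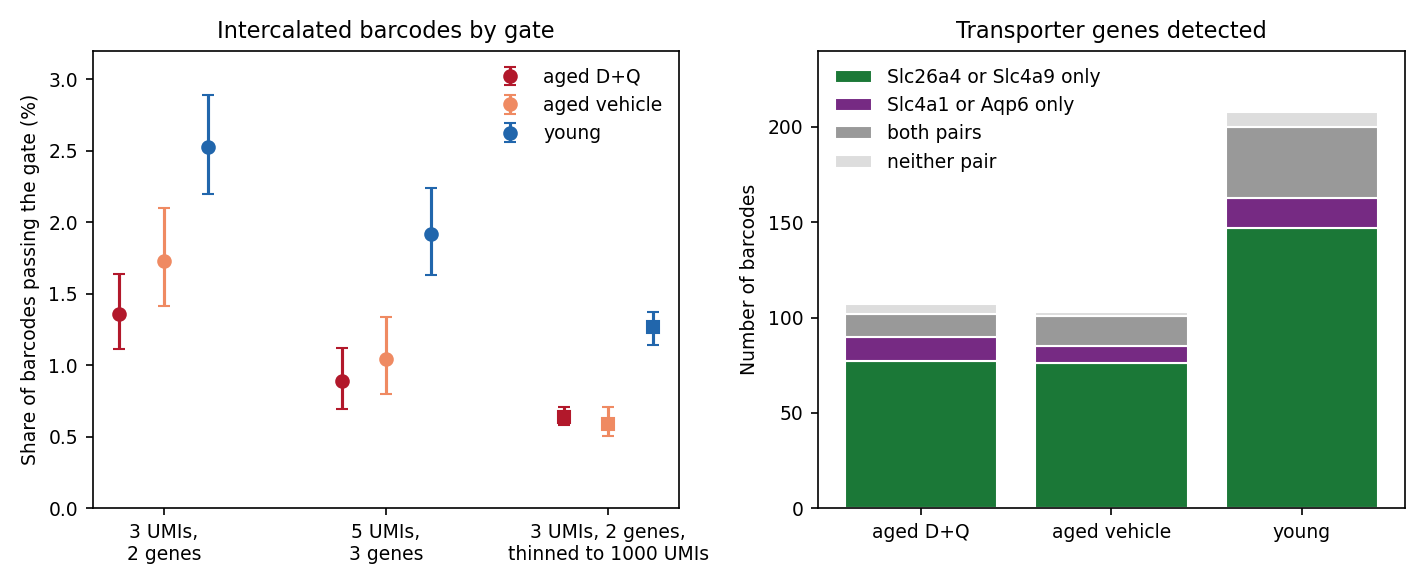
Left, the percent of barcodes in each library that passed the intercalated gate at 3 UMIs and 2 genes, at 5 UMIs and 3 genes (bars are exact 95% intervals), and after thinning to 1000 UMIs (bars are the lowest and highest of 20 draws); the young library was highest under each. Right, the number of intercalated barcodes by the transporters detected in them; those with Slc26a4 or Slc4a9 alone made up 77 of 107 in the aged D+Q library, 76 of 103 in the aged vehicle library and 147 of 208 in the young library.

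The 9 genes of the gate were, by construction, high in the barcodes it picked, and their levels are given as a description without a test. Slc26a4 stood at 883, 841 and 773 CPM (counts divided by all counts of the barcodes summed, times 1e+06) in intercalated barcodes of the aged D+Q, aged vehicle and young libraries, against 4.09, 5.79 and 5.93 CPM in all other barcodes. Slc4a9 stood at 608, 462 and 781 CPM against 5.52, 4.36 and 6.65 CPM, in the same order of libraries. Foxi1 was sparse, at 45.05, 20.6 and 35.6 CPM against 0.443, 0.601 and 0.446 CPM. Slc4a1 and Aqp6, the genes of type A cells, were at 67.6, 53.6 and 52.0 CPM and at 90.1, 43.3 and 38.5 CPM in intercalated barcodes, so pendrin outweighed AE1 in every library. The median intercalated barcode held 8 gate UMIs in the aged D+Q library, 6 in the aged vehicle library and 9 in the young library. A UMI of Slc26a4 was found in 59.8%, 61.2% and 65.4% of intercalated barcodes (46.7%, 35.0% and 40.9% after thinning to 1000 UMIs), against 1.02%, 1.13% and 1.44% of proximal tubule barcodes, a cell type that should lack pendrin, whose median depths were 2357, 1890 and 2443 UMIs. A UMI of Foxi1 was found in 14.95%, 8.74% and 13.5% of intercalated barcodes (9.35%, 2.91% and 4.81% after thinning), against 0.133%, 0.150% and 0.132% of proximal tubule barcodes. These shares are descriptions too, since the gate used both genes and the proximal tubule barcodes were taken from those outside it.

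Atp6v1b1, the B1 subunit of the proton pump that the kidney uses in intercalated cells, was not in the gate and served to look at its edge. Barcodes just inside, with 3 or 4 gate UMIs, held 122 CPM of Atp6v1b1 in the aged D+Q library, 95.5 CPM in the aged vehicle library and 92.8 CPM in the young library. Barcodes just outside, with 2 UMIs of 2 gate genes, held 34.2, 48.0 and 37.4 CPM in the same order, and barcodes with no gate UMI held 11.4, 9.83 and 11.5 CPM. Barcodes with 10 or more gate UMIs held 157, 218 and 211 CPM. Barcodes with 2 UMIs of 2 gate genes thus held less of it than those with 3 or 4 UMIs in every library. These levels rested on 4, 8 and 9 counts outside and 13, 20 and 17 counts inside, so counting error was large. The few barcodes with at least 3 UMIs of a single gate gene (3, 2 and 9) held 0, 0 and 84.01 CPM, and those with 2 UMIs of a single gene (20, 13 and 23) 24.9, 48.6 and 89.5 CPM, so in the young library these lay close to the level just inside. The young levels of these barcodes rested on 3 and 7 counts. The libraries also held intercalated genes among barcodes above the mitochondrial limit, which were left out: 6 of 149 such barcodes in the aged D+Q library, 1 of 82 in the aged vehicle library and 4 of 385 in the young library passed the gate.

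Markers of other cell types were present in intercalated barcodes. The 9 proximal tubule markers summed to 12428, 13019 and 12149 CPM in intercalated barcodes of the aged D+Q, aged vehicle and young libraries, against 21562, 20532 and 19417 CPM in all other barcodes, and all 9 were lower there. The most abundant of them, Kap, was therefore found nearly everywhere. The 8 endothelial markers summed to 1315, 1327 and 1350 CPM against 559, 477 and 624 CPM. Of the 8 tested, 7 were higher in intercalated barcodes, beside 12.5% higher and 13.3% lower over all genes tested. Principal cell barcodes held 1318, 1192 and 1572 CPM of these markers, and 0 of the 8 were called against them. The 8 leukocyte markers summed to 142, 422 and 197 CPM, with Cd3e and Cd79a at 0 in the aged D+Q library and Cd3e and S100a8 at 0 in the young library. The 9 urothelial markers summed to 90.1, 43.3 and 541 CPM, highest in the young library. The 8 principal cell markers summed to 2000, 789 and 605 CPM against 207, 160 and 188 CPM, highest in the aged D+Q library. The 7 markers of the distal convoluted and connecting tubule summed to 8417, 4245 and 3637 CPM against 1647, 1623 and 1878 CPM, 4 of 5 tested being higher. This sum too was highest in the aged D+Q library, and it was 2633, 2757 and 2207 CPM in intercalated barcodes with at most 25% mt- counts. The part these markers played in the results that follow was not tested, except where a value without the barcodes concerned is given.

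Principal cell genes were concentrated in intercalated barcodes with many mitochondrial counts. Of intercalated barcodes with more than 25% mt- counts, 21 of 23 in the aged D+Q library, 10 of 14 in the aged vehicle library and 10 of 11 in the young library also passed the principal cell gate, or 91.3% (95% exact interval 72.0 to 98.9%), 71.4% (41.9 to 91.6%) and 90.9% (58.7 to 99.8%). Of those with at most 25%, 10.7%, 16.9% and 19.8% did. All other barcodes with more than 25% mt- counts passed it in 5.37%, 9.54% and 5.16% of cases, a far lower share. The 8 principal cell genes summed to 9271, 5969 and 5706 CPM in intercalated barcodes above 25%, and to 369, 281 and 376 CPM in those below. The aged D+Q library had the most of these barcodes, and 754 of its 888 principal cell counts sat in them. Values for intercalated barcodes with at most 25% mt- counts are therefore also given below for some genes and lists, though not for all that differ.

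**Figure D2:**
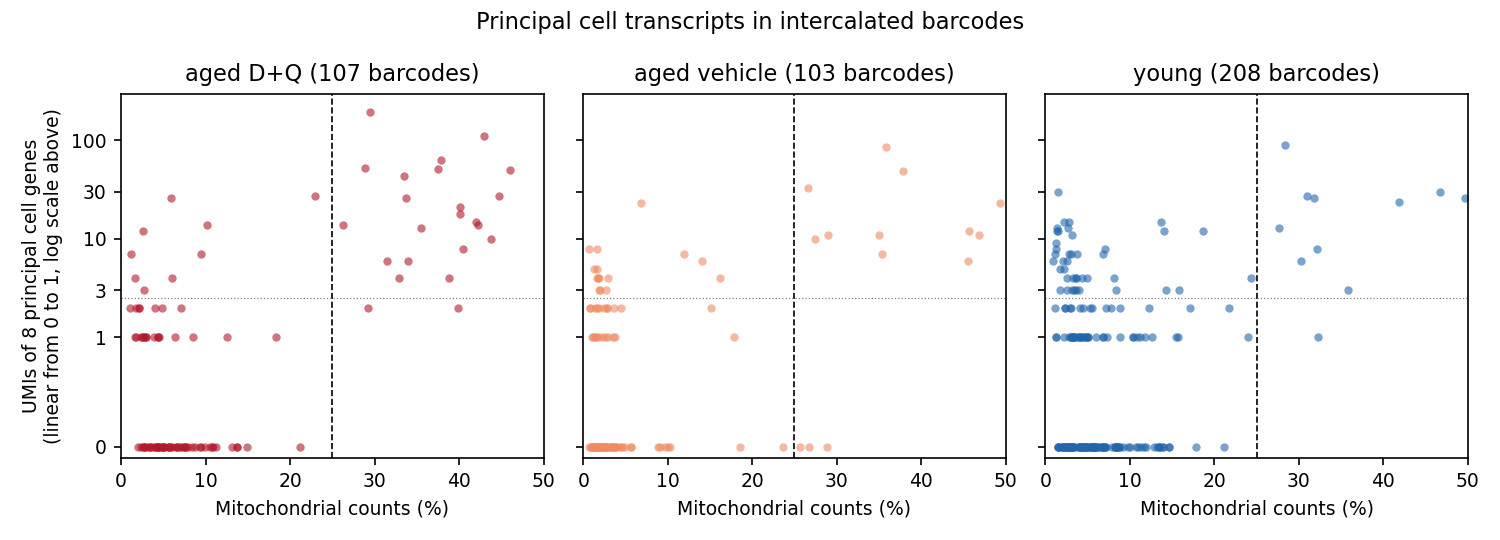
Each point is 1 intercalated barcode, with the percent of mt- counts on the horizontal axis and the UMIs of the 8 principal cell genes on the vertical axis (linear from 0 to 1, logarithmic above), in the aged D+Q, aged vehicle and young libraries. The dashed line marks 25% and the dotted line the 3 UMIs of the principal cell gate; above 25%, 21 of 23, 10 of 14 and 10 of 11 barcodes passed that gate.

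Intercalated barcodes were first set against all other barcodes of the same library, to ask which genes outside the gate marked them. Sums of counts over each class of each library were used, and 10328 genes were tested with edgeR's quasi-likelihood test with library as a block. At an adjusted p under 0.05, 1288 genes (12.5% of those tested) were higher in intercalated barcodes and 1374 (13.3%) were lower; with scaling by total counts in place of edgeR's TMM factors, the split was 2656 higher and 728 lower, and the median of all genes moved to 0.22 on the log2 scale. The p-values measure the spread between these 3 libraries, which are of different groups. The genes with the largest ratios included a transcription factor, proton pump subunits and several genes better known from neurons or photoreceptors.

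Hmx2, a homeobox transcription factor, stood at 76.6, 53.6 and 102 CPM in intercalated barcodes of the aged D+Q, aged vehicle and young libraries, against 0.690, 0.526 and 1.25 CPM in all other barcodes. The groups of values were far apart, with a log2 ratio of 6.31 ± 0.303 (SE, edgeR adjusted p = 2.57e-29). Rp1, a microtubule protein of the photoreceptor axoneme, stood at 94.6, 78.3 and 92.5 CPM against 0.887, 1.35 and 1.25 CPM, again without overlap (log2 ratio 6.04 ± 0.278, edgeR adjusted p = 2.18e-30). Oxgr1, the receptor for 2-oxoglutarate known for raising pendrin-dependent transport in type B cells, stood at 140, 80.4 and 90.5 CPM against 2.91, 3.46 and 3.48 CPM (log2 ratio 4.74 ± 0.229, edgeR adjusted p = 3.71e-29). Every library placed intercalated barcodes above the rest for all 3 genes.

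Lsamp, a cell adhesion protein of the limbic system, was among the most abundant of these genes, at 651, 697 and 624 CPM in intercalated barcodes against 30.1, 36.7 and 29.0 CPM in all others (log2 ratio 4.16 ± 0.0928). Tmem117, a membrane protein, stood at 716, 554 and 640 CPM against 20.8, 21.9 and 23.0 CPM (log2 ratio 4.65 ± 0.0983). Malrd1 had a log2 ratio of 4.88, Syn2, a synapsin of synaptic vesicles, 4.47, Bmpr1b, a receptor for bone morphogenetic proteins, 3.72, Clnk, an adaptor protein of immune cells, 3.70, Spink8, a Kazal-type protease inhibitor, 3.43, and Rtl4, a retrotransposon-derived gene, 3.35. Kit, the receptor for stem cell factor, stood at 67.6, 90.7 and 72.2 CPM against 4.39, 3.31 and 4.37 CPM (log2 ratio 4.01). Rhbg, the ammonia transporter of the basolateral side, stood at 191, 105 and 69.4 CPM against 5.86, 6.54 and 6.87 CPM (log2 ratio 3.91); its ratio was 2.88 with the mitochondrial limit at 25% and 2.67 without members that passed the principal cell gate. The other genes of this group kept their calls under every alternative run.

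Among the genes lower in intercalated barcodes, Usp29, a deubiquitinase, stood at 11.3, 122 and 58.8 CPM in intercalated barcodes against 245, 421 and 277 CPM in all other barcodes (log2 ratio -2.51 ± 0.145, edgeR adjusted p = 1.35e-24). Ube2cbp, a protein that binds ubiquitin-conjugating enzymes, stood at 13.5, 68.0 and 22.2 CPM against 223, 160 and 124 CPM (log2 ratio -2.50). Azgp1, Pigr, the receptor that carries immunoglobulin A across epithelia, and Myo3a, a class III myosin, had log2 ratios of -1.44, -1.32 and -1.28. Each of these 5 genes was lower in intercalated barcodes of every library.

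**Figure D3:**
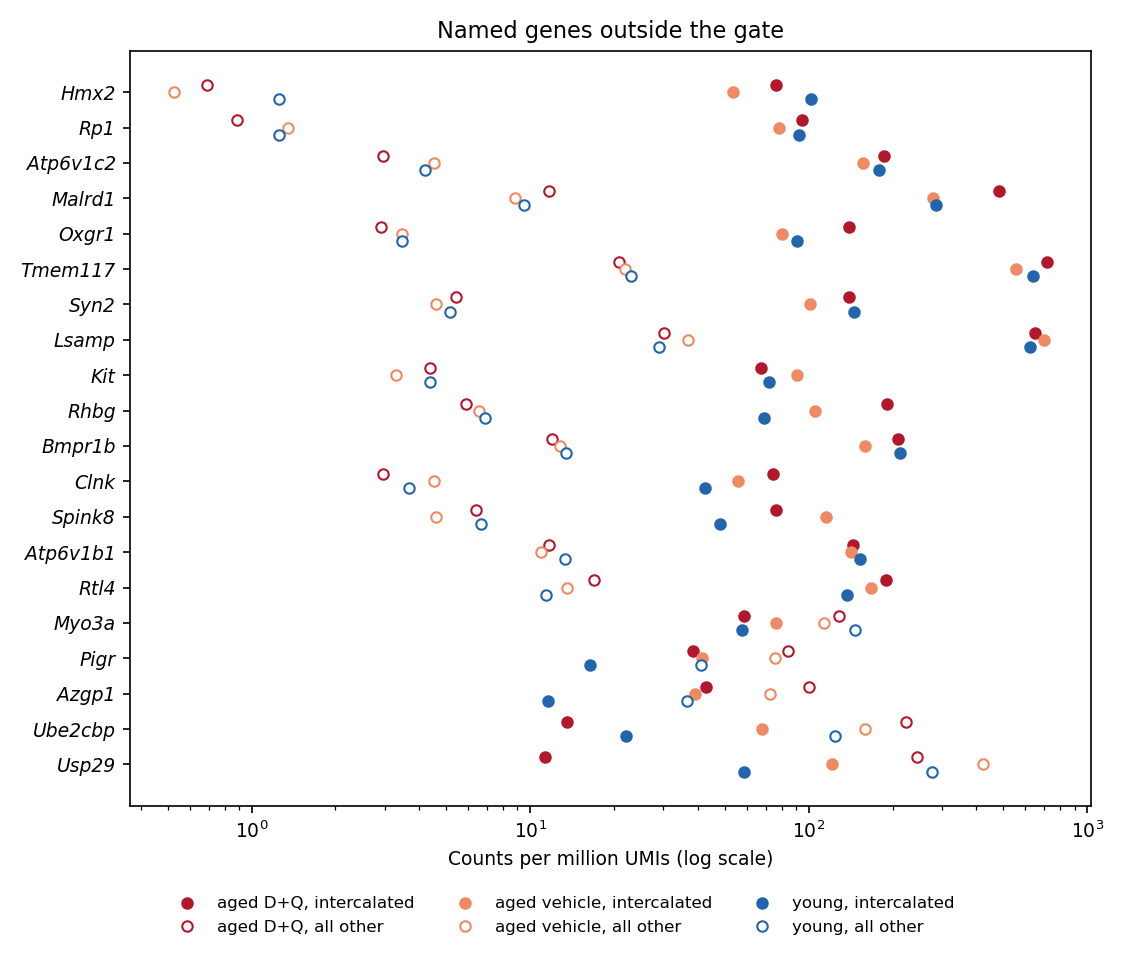
Levels of the 20 genes named for the comparison of intercalated with all other barcodes, in CPM on a log axis, with filled points for intercalated and open points for all other barcodes and 1 point per library. The 15 upper genes lay above the open points in every library, as in Hmx2 (76.6, 53.6 and 102 CPM against 0.690, 0.526 and 1.25 CPM), and the lower 5 below them.

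The proton pump is the machine that defines these cells, and its genes are listed here by subunit. The 25 genes of the pump and its accessory proteins summed to 4935, 4276 and 4434 CPM in intercalated barcodes of the aged D+Q, aged vehicle and young libraries, against 2591, 2592 and 2425 CPM in principal cell barcodes and 2324, 2281 and 2364 CPM in all other barcodes. These sums include Atp6v1g3 and Atp6v0d2, which the gate used and which had the log2 ratios 5.52 and 7.001. Of the 19 pump genes tested outside the gate, 11 were higher and 1 was lower, beside 12.5% and 13.3% of all genes tested. Their median log2 ratio was 0.40, beside 0.01 for all genes tested.

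Of the pump genes outside the gate, Atp6v1c2 and Atp6v1b1 had the largest ratios. In the V1 part, Atp6v1c2, the C2 isoform, stood at 187, 157 and 179 CPM in intercalated barcodes against 2.96, 4.51 and 4.19 CPM in all others (log2 ratio 5.29 ± 0.185, edgeR adjusted p = 1.28e-37). Atp6v1b1 stood at 144, 142 and 153 CPM against 11.7, 10.97 and 13.4 CPM (log2 ratio 3.39 ± 0.153, edgeR adjusted p = 9.3e-31). Of their widely expressed counterparts, Atp6v1c1 had a log2 ratio of 0.14 and missed the threshold. Atp6v1b2, at 155, 245 and 197 CPM against 199, 254 and 189 CPM, had -0.30 (edgeR adjusted p = 0.0216) with the young library on the other side. Its ratio uses TMM factors, while the CPM are scaled by total counts, under which the median log2 ratio of all genes was 0.22. Atp6v1a, the catalytic A subunit, stood at 624, 493 and 464 CPM against 287, 299 and 293 CPM (log2 ratio 0.62), and Atp6v1h, the regulatory H subunit, had 0.51. Atp6v1e1 and Atp6v1f passed the threshold with 0.40 and 0.36, Atp6v1d had 0.32 with an adjusted p of 0.0544 from edgeR, and Atp6v1g1 had -0.25 and missed the threshold.

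In the V0 part, Atp6v0a4, the a4 isoform of kidney, stood at 689, 655 and 560 CPM in intercalated barcodes against 407, 412 and 371 CPM in all others (log2 ratio 0.46 ± 0.0919, edgeR adjusted p = 4.08e-05). Its level in all other barcodes was thus higher than that of Atp6v1b1, a comparison on CPM of a 3′ assay, which is not scaled by gene length. Atp6v0b had a log2 ratio of 0.61 and Atp6v0e 0.40, while Atp6v0a1, Atp6v0a2, Atp6v0c and Atp6v0d1, with 0.31, 0.26, 0.03 and 0.11, missed the threshold. The accessory proteins Atp6ap1 and Atp6ap2, the second known as the prorenin receptor, had 0.83 and 1.17. At the 25% mitochondrial limit, Atp6v0e (0.14) and Atp6v1f (0.24) no longer passed the threshold. Set against principal cell barcodes, where the gates of both classes are descriptions, 9 of 20 pump genes tested were higher and none was lower; Atp6v1c2 had 4.23, Atp6v1b1 1.89, Atp6ap2 0.82 and Atp6v0a4 0.76. Over all genes tested against principal cell barcodes, edgeR called 1.67% higher and 1.02% lower. DESeq2 called 4 of the 20 pump genes, and 14 had an unadjusted p under 0.05 in edgeR.

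**Figure D4:**
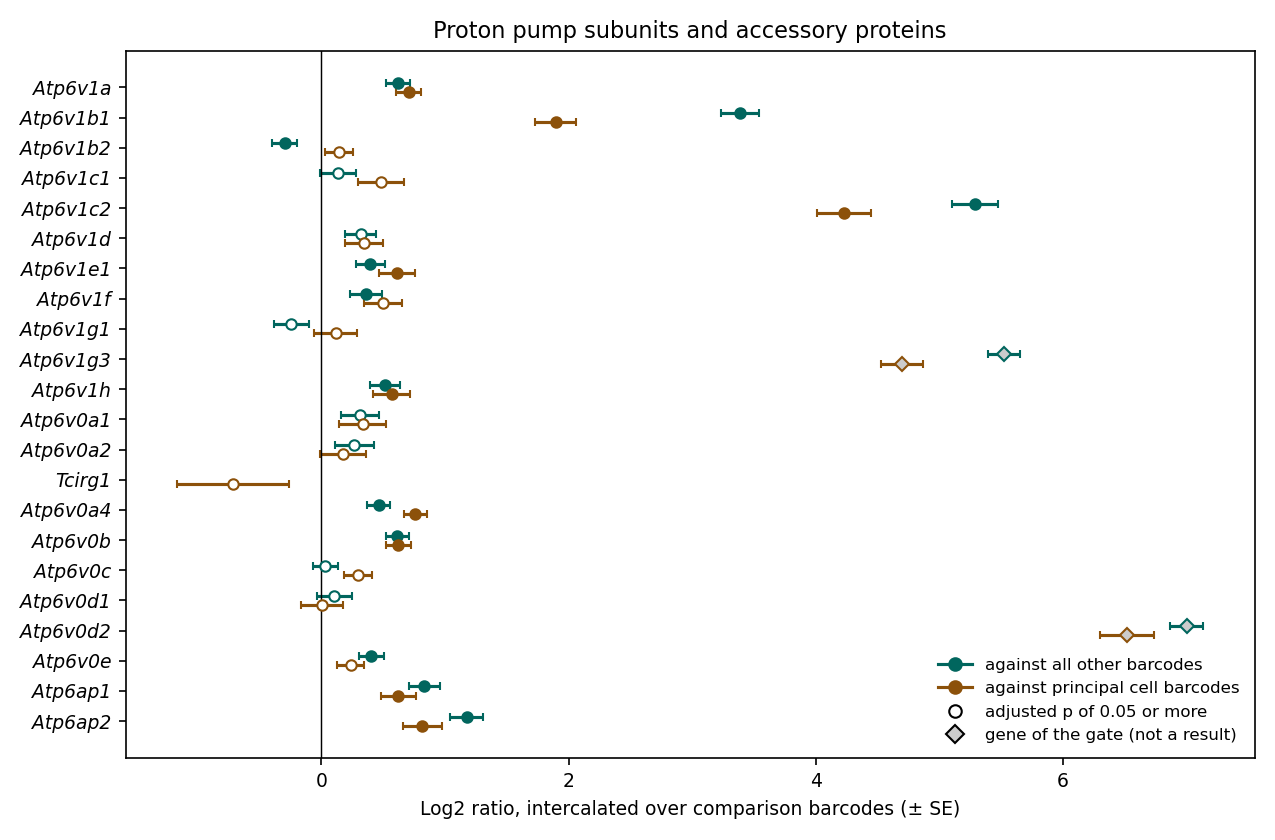
Log2 ratio (± SE) of each proton pump gene in intercalated barcodes against all other barcodes and against principal cell barcodes; open points had an adjusted p of 0.05 or more, and grey diamonds are the genes of the gate. Atp6v1c2 (5.29 and 4.23) and Atp6v1b1 (3.39 and 1.89) stood above the other subunits outside the gate in both comparisons.

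Foxi1 is known to bind the core letters TAAACA, and promoters of the genes above were searched for them, since Atp6v1b1 is a known Foxi1 target in mouse. The search covered RefSeq windows of build GRCm38.p6 from 250 bases before to 50 after each start, on both strands (TAAACA or TGTTTA). Windows on 1 chromosome and windows not of full length were left out, so an unmatched gene may still have a RefSeq start. A gene was counted if any of its windows held the letters, so shares of genes and of windows are unlike measures. The letters occurred in 4416 of 32851 windows (13.4%), in 1 of 19 matched proton pump genes (of 25), in 0 of 5 matched gate genes (of 9) and in 2 of the 10 matched genes (of 15) named as higher in intercalated than in all other barcodes. The matches were Atp6v1b1, first at position -98 from the start, and Lsamp, first at position -14. A match is a description of letters and no evidence of binding, and genes without one are not thereby outside the reach of the factor. The 250 bases before the start of both genes are shown because they are the members with the motif among those named, both on the plus strand, at chr6:83742767-83743016 for Atp6v1b1 and chr16:39984114-39984363 for Lsamp, with the motif in capitals.
Atp6v1b1: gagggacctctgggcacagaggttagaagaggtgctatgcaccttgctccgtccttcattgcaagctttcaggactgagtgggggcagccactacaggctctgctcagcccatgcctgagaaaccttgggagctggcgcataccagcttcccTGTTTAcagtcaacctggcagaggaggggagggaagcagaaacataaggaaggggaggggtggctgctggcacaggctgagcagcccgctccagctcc
Lsamp: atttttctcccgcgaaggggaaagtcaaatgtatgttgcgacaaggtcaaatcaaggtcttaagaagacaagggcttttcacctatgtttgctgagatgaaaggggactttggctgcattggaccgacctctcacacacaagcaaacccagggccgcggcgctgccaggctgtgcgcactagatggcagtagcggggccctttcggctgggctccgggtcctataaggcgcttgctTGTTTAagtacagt

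Most genes of acid-base transport were higher. Of the 11 tested outside the gate, 7 were higher in intercalated barcodes than in all others and 2 were lower. Over all genes tested, 12.5% were higher and 13.3% lower. The median log2 ratio of the list was 0.75 (0.01 for all genes tested). Car2, the cytosolic carbonic anhydrase that supplies protons and bicarbonate, stood at 496, 383 and 516 CPM in intercalated barcodes of the aged D+Q, aged vehicle and young libraries against 116, 115 and 158 CPM in all others (log2 ratio 1.63 ± 0.0926). Car12, a membrane carbonic anhydrase, stood at 509, 591 and 926 CPM against 211, 260 and 269 CPM (log2 ratio 1.23 ± 0.0958), and Car15 had 1.55. Rhcg, the ammonia transporter of the luminal side, stood at 239, 86.6 and 123 CPM against 17.8, 15.4 and 15.3 CPM (log2 ratio 2.94 ± 0.157). The 2 lower genes were Slc4a4, the sodium bicarbonate cotransporter best known from proximal tubule, with -0.83, and Car4, a surface carbonic anhydrase, with -0.74. Against principal cell barcodes 4 of 11 were higher, beside 1.67% of all genes tested. They were Car12 (1.57), Car2 (1.26), Rhbg (1.24) and Car15 (0.68). Rhcg was at 239, 86.6 and 123 CPM in intercalated and 150, 130 and 69.3 CPM in principal cell barcodes. It missed the threshold (log2 ratio 0.45, edgeR adjusted p = 0.195).

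Among ion channels and pumps, 6 of 14 tested were higher and 3 lower than in all other barcodes, beside 12.5% higher and 13.3% lower over all genes tested; the median log2 ratio of the list was 0.21. Atp4a, the gastric type proton-potassium pump, stood at 104, 61.8 and 21.2 CPM in intercalated barcodes against 16.5, 13.9 and 10.6 CPM (log2 ratio 1.79), with the young library nearest to the other barcodes. Bsnd, the chloride channel subunit barttin, had 1.74, Kcnj10, a basolateral potassium channel, 1.63, Kcnj1, the secretory potassium channel ROMK, 0.70 and Clcn5, an endosomal chloride-proton exchanger, 0.55. Kcnma1, the pore of the flow-activated BK channel, stood at 42.8, 49.5 and 50.1 CPM against 52.6, 86.0 and 83.6 CPM and was lower (log2 ratio -0.88), as were Slc12a2 (-0.60) and Kcnj16 (-0.58). Against principal cell barcodes 2 of 15 tested were higher, Clcn5 (0.75) among them, beside 1.67% of all genes tested. The 20 genes of the list summed to 5698, 4963 and 4726 CPM in intercalated barcodes of the aged D+Q, aged vehicle and young libraries. In those with at most 25% mt- counts they summed to 3940, 4151 and 4183 CPM. All other barcodes, at the 50% limit, held 4359, 4173 and 4322 CPM.

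Of 16 transcription factors and Notch pathway genes tested outside the gate, 11 were higher in intercalated than in all other barcodes and 0 lower. Over all genes tested, 12.5% were higher and 13.3% lower. The median log2 ratio of the list was 1.36, beside 0.01 for all genes tested. Dmrt2, a factor known from type A cells, was sparse, at 24.8, 14.4 and 25.04 CPM against 0.246, 0.902 and 0.625 CPM (log2 ratio 5.02 ± 0.503). Tfcp2l1, a regulator of both collecting duct cell types in mouse, stood at 500, 418 and 424 CPM against 139, 114 and 164 CPM (log2 ratio 1.46 ± 0.0948). Gata2, Gata3, Grhl2 and Tfap2b, factors of the distal nephron or collecting duct, had 2.03, 1.58, 1.58 and 1.28. The Notch ligands Jag1 and Dll4 and the Notch target Hes1 had 1.51, 1.44 and 0.91. Against principal cell barcodes 4 of 16 were higher, beside 1.67% of all genes tested. They were Hmx2 (5.11), Dmrt2 (4.36), Tfcp2l1 (0.74) and Foxp1 (0.49). Most of the factors called thus passed the test only against the kidney at large. The difference between the comparisons was not tested.

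Receptors and hormone signalling genes were higher in 11 of 18 tested and lower in 1, with a median log2 ratio of 0.59 (12.5% higher, 13.3% lower and a median of 0.01 over all genes tested). Nr3c2, the mineralocorticoid receptor, stood at 331, 322 and 293 CPM in intercalated barcodes against 120, 134 and 103 CPM (log2 ratio 1.21 ± 0.0939). P2ry14, the receptor for UDP-glucose, known in intercalated cells for sensing danger signals, stood at 31.5, 10.3 and 21.2 CPM against 3.30, 3.76 and 3.97 CPM (log2 ratio 2.27). Ednrb, an endothelin receptor, had 1.03, and the kinase and ubiquitin ligase genes that control salt transport, Stk39, Klhl3, Wnk1 and Nedd4l, had 0.88, 0.76, 0.50 and 0.43; Igf1r was lower (-0.43). Against principal cell barcodes 3 of 18 were higher, beside 1.67% of all genes tested. Avpr1a, the V1a vasopressin receptor known in intercalated cells, stood at 13.5, 20.6 and 22.2 CPM against 3.31, 1.75 and 0 CPM (log2 ratio 3.74). The others were Oxgr1 (3.21) and P2ry14 (1.68). Hsd11b2, which protects the mineralocorticoid receptor from glucocorticoids, was higher than in all other barcodes (2.94); it was a gene of the principal cell gate and is described with the libraries.

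Of the innate defence list, 6 of 6 genes tested were called higher than in all other barcodes by edgeR and 4 by DESeq2, beside 12.5% of all genes tested by edgeR. They were P2ry14 (2.27), Slpi (1.54), Lgals3 (1.26), Tlr4 (0.87), Defb1 (0.75) and Wfdc2 (0.49). Against principal cell barcodes edgeR called 2 of 6 higher, P2ry14 and Slpi, and DESeq2 called 0, beside 1.67% of all genes tested by edgeR. The 16 genes summed to 658, 647 and 549 CPM in intercalated barcodes of the aged D+Q, aged vehicle and young libraries. At the 25% mitochondrial limit they summed to 458, 543 and 466 CPM. Principal cell barcodes held 579, 440 and 611 CPM and all other barcodes 293, 287 and 351 CPM. Slpi, a protease inhibitor, stood at 6.76, 212 and 0 CPM in intercalated barcodes against 3.15, 51.2 and 1.83 CPM, so it was not higher in the young library, and 1 barcode held 73.8% of its counts in the aged vehicle library. Mitochondrially encoded genes were lower in 11 of 13 tested with a median log2 ratio of -0.44. By library their sum was 102644, 58417 and 60952 CPM in intercalated barcodes against 89182, 68250 and 91035 CPM in all others, so the aged D+Q library went the other way. Nuclear respiratory chain genes were lower in 4 of 30 and clock genes in 2 of 15, shares near the 13.3% of all genes tested.

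Set against principal cell barcodes alone, 177 of 10628 genes (1.67%) were higher and 108 (1.02%) lower at an edgeR adjusted p under 0.05. Rp1 (log2 ratio 5.65), Hmx2 (5.11), Lsamp (4.81), Malrd1 (4.39), Atp6v1c2 (4.23) and Syn2 (4.19) led again. Lsamp stood at 651, 697 and 624 CPM in intercalated against 33.1, 29.8 and 14.1 CPM in principal cell barcodes, and Kit at 67.6, 90.7 and 72.2 CPM against 13.2, 7.01 and 8.34 CPM (log2 ratio 2.96). Tshr, the thyrotropin receptor, stood at 128, 51.5 and 60.7 CPM against 8.81, 5.26 and 6.41 CPM (log2 ratio 3.48 ± 0.279, edgeR adjusted p = 2.83e-12). All of these were higher in intercalated barcodes of every library. Slpi passed the test too (log2 ratio 3.29) but had -1.48 with a gate of 5 UMIs and 3 genes.

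Of the 8 genes named as lower than in principal cell barcodes, 5 were high in principal cell barcodes of the young library alone. Igfbp2, an insulin-like growth factor binding protein, stood at 0, 0 and 10.6 CPM in intercalated barcodes of the aged D+Q, aged vehicle and young libraries, against 4.41, 0 and 224 CPM in principal cell barcodes. Ly6d, Ctse, Krt19 and Gsta4 had the same pattern, and Gsta4 turned to 0.34 without the young library. Urothelial markers were lower in 6 of 8 tested, and summed to 1398 CPM in principal cell barcodes of the young library, against 122 and 80.6 CPM in those of the aged D+Q and aged vehicle libraries. The other 3 were lower in every library: Mgat4c, a glycosyltransferase gene, at 42.8, 37.1 and 46.2 CPM against 217, 78.9 and 138 CPM (log2 ratio -1.71), Il1rapl1, a synaptic protein, at 9.01, 20.6 and 17.3 CPM against 84.8, 38.6 and 46.2 CPM (-1.71), and Usp29 (-1.73). Without members that also passed the principal cell gate, 217 genes were lower.

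Within the intercalated barcodes, 300 held Slc26a4 or Slc4a9 without Slc4a1 and Aqp6, 38 held Slc4a1 or Aqp6 without the other pair, 65 held both pairs and 15 held neither. The first class counted 77, 76 and 147 barcodes and the second 13, 9 and 16 in the aged D+Q, aged vehicle and young libraries. Slc26a4 or Slc4a9 positive barcodes made up 85.6% (95% exact interval 76.6 to 92.1%), 89.4% (80.8 to 95.04%) and 90.2% (84.5 to 94.3%) of those in either class. These intervals overlapped, so no difference in the mix was detectable at this depth. The median UMI number decides how often a sparse transcript is seen, and Slc4a1 was found in 13.1%, 16.5% and 18.3% of intercalated barcodes (3.74%, 4.85% and 7.21% after thinning), against 0.252%, 0.132% and 0.294% of proximal tubule barcodes. Aqp6 was found in 19.6%, 15.5% and 13.9% (5.61%, 4.85% and 3.85% after thinning), against 0.636%, 0.320% and 0.397%. Both were sparser than Slc26a4, so a barcode without them may still express them, and the classes are named by their detected transcripts. Many barcodes of the Slc4a1 or Aqp6 class held only 1 UMI of that pair, in the young library most of them. Of the barcodes with both pairs, 8, 7 and 6 had more than 25% mt- counts.

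Summed per library, the Slc26a4 or Slc4a9 class held 327086, 333178 and 701248 UMIs and the Slc4a1 or Aqp6 class 37853, 58421 and 74994 UMIs, so 1 count in the smaller class was worth 26.4, 17.1 and 13.3 CPM. Of 9739 genes tested with edgeR, 20 (0.205%) were higher and 11 (0.113%) lower in the Slc26a4 or Slc4a9 class, including the 4 genes that define the classes. In simulated counts of this size the same test found 42.9% of genes changed 4-fold and 8.05% of those changed 2-fold. This limits what the absence of a call can show. The simulation gave every gene the same fixed spread and had no differences between libraries, so recovery in the real counts may be lower.

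Lsamp gave the clearest split. It stood at 841, 1011 and 894 CPM in the Slc26a4 or Slc4a9 class of the aged D+Q, aged vehicle and young libraries, and at 26.4, 0 and 26.7 CPM in the Slc4a1 or Aqp6 class (log2 ratio 5.76 ± 0.507, edgeR adjusted p = 2.63e-26). The classes did not overlap, and the call stood under every alternative run. Hmx2 stood at 101, 75.04 and 145 CPM against 0 counts in all 3 libraries, which is at least 6.71-fold higher when 3 counts are set for the smaller class as a whole (edgeR adjusted p = 6.7e-05); the call was lost without the young library and with a gate of 5 UMIs and 3 genes, and DESeq2 gave no adjusted p for the gene. Rp1 stood at 119, 111 and 125 CPM against 0, 0 and 13.3 CPM (edgeR adjusted p = 4.37e-04), and this call was lost under the same 2 alternatives. Usp29, at 15.3, 141 and 84.1 CPM against 0 counts, was at least 4.65-fold higher (edgeR adjusted p = 0.00167), a call lost without the aged vehicle or the young library. Hmx2, Rp1 and Lsamp, which were among the largest ratios against the rest of the kidney, thus stood higher in the Slc26a4 or Slc4a9 class in every library.

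Nbea, neurobeachin, a scaffold of vesicle traffic, stood at 547, 426 and 610 CPM in the Slc26a4 or Slc4a9 class against 26.4, 188 and 120 CPM (log2 ratio 2.22 ± 0.354, edgeR adjusted p = 5.15e-07). Hsd11b1, which regenerates active glucocorticoid, stood at 147, 111 and 165 CPM against 26.4, 51.4 and 26.7 CPM (log2 ratio 2.08 ± 0.541, edgeR adjusted p = 0.0393). Tmem163, a zinc transporter, had 3.33, C2cd5 2.10, Rtl4 1.98 and Csmd1, a complement regulator, 1.92. Every library had the Slc26a4 or Slc4a9 class higher for these 6 genes, and each lost its call when the young library was left out. The promoter windows of Hsd11b1, Lsamp and P2ry14 held the forkhead letters among 14 matched of 19 genes named in this contrast. That is 21.4% of genes, beside 13.4% of all windows searched, an unlike measure, and the difference was not tested.

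Kit, Adgrf5, Dmrt2 and P2ry14, higher in the Slc4a1 or Aqp6 class, are known from type A cells. Kit stood at 33.6, 57.0 and 45.6 CPM in the Slc26a4 or Slc4a9 class against 185, 205 and 147 CPM in the Slc4a1 or Aqp6 class (log2 ratio -1.83 ± 0.425, edgeR adjusted p = 0.00757). Adgrf5, an adhesion receptor known to regulate acid secretion by type A cells in mouse, stood at 88.7, 93.0 and 67.0 CPM against 291, 205 and 253 CPM (log2 ratio -1.52 ± 0.350, edgeR adjusted p = 0.00757). Dmrt2 stood at 12.2, 9.004 and 4.28 CPM against 52.8, 51.4 and 107 CPM (log2 ratio -3.19, edgeR adjusted p = 0.0341). P2ry14 stood at 21.4, 9.004 and 5.70 CPM against 106, 34.2 and 107 CPM (log2 ratio -2.88, edgeR adjusted p = 0.0354). In every library the Slc4a1 or Aqp6 class was higher for all 4 genes. Its levels of Dmrt2 and P2ry14 in the aged libraries rested on only a few counts each, so counting error there was large. At the 25% mitochondrial limit all 4 lost their calls and kept their direction, with log2 ratios of -1.55 for Kit, -1.34 for Adgrf5, -3.07 for Dmrt2 and -2.89 for P2ry14. Kit and Adgrf5 also lost them without the young library, with -2.05 and -1.39, without members in the principal cell gate, with -1.61 for each, and under DESeq2, with -1.97 and -1.61; DESeq2 gave no adjusted p for Dmrt2 and P2ry14. The Slc4a1 or Aqp6 class also differed in other ways in every library. The principal cell markers summed to 1168, 327 and 451 CPM in the Slc26a4 or Slc4a9 class against 2008, 599 and 907 CPM in the Slc4a1 or Aqp6 class, and mitochondrially encoded genes to 80214, 40444 and 52760 CPM against 147227, 54278 and 89314 CPM. Their part in the contrast was not tested.

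The other genes lower in the Slc26a4 or Slc4a9 class were less even. Mme, the metalloprotease neprilysin, stood at 94.8, 42.0 and 45.6 CPM against 238, 223 and 187 CPM (log2 ratio -1.82, edgeR adjusted p = 0.00155) and had -0.61 at the 25% mitochondrial limit. Slc12a2, the basolateral sodium-potassium-chloride cotransporter, stood at 42.8, 21.0 and 35.7 CPM against 106, 17.1 and 320 CPM (log2 ratio -2.20), and had -0.02 without members that passed the principal cell gate. Nupr1 was seen in the Slc4a1 or Aqp6 class of the young library alone, at 173 CPM, and Mgst1 turned to 0.18 without that library. Cd74, of antigen presentation, had -1.43 and turned to 0.76 with the gate of 5 UMIs and 3 genes.

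No proton pump or acid-base gene outside the gate was called between the classes at this depth. Of 19 proton pump genes tested, edgeR called 0, with 1 at an unadjusted p under 0.05 and 0 called by DESeq2, and their median log2 ratio was 0.06, beside 0.15 for all genes. Of 11 acid-base genes edgeR called 0, with 4 at an unadjusted p under 0.05 and 0 called by DESeq2. Car12 stood at 615, 696 and 1078 CPM in the Slc26a4 or Slc4a9 class against 79.3, 445 and 787 CPM (log2 ratio 1.00, edgeR adjusted p = 0.118). Rhbg stood at 125, 66.0 and 42.8 CPM against 238, 154 and 120 CPM (log2 ratio -1.10, edgeR adjusted p = 0.48), and Oxgr1 at 156, 96.0 and 95.5 CPM against 52.8, 34.2 and 80.01 CPM (log2 ratio 0.99, edgeR adjusted p = 0.889). In each library these 3 genes lay on the same side, without passing the test.

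**Figure D5:**
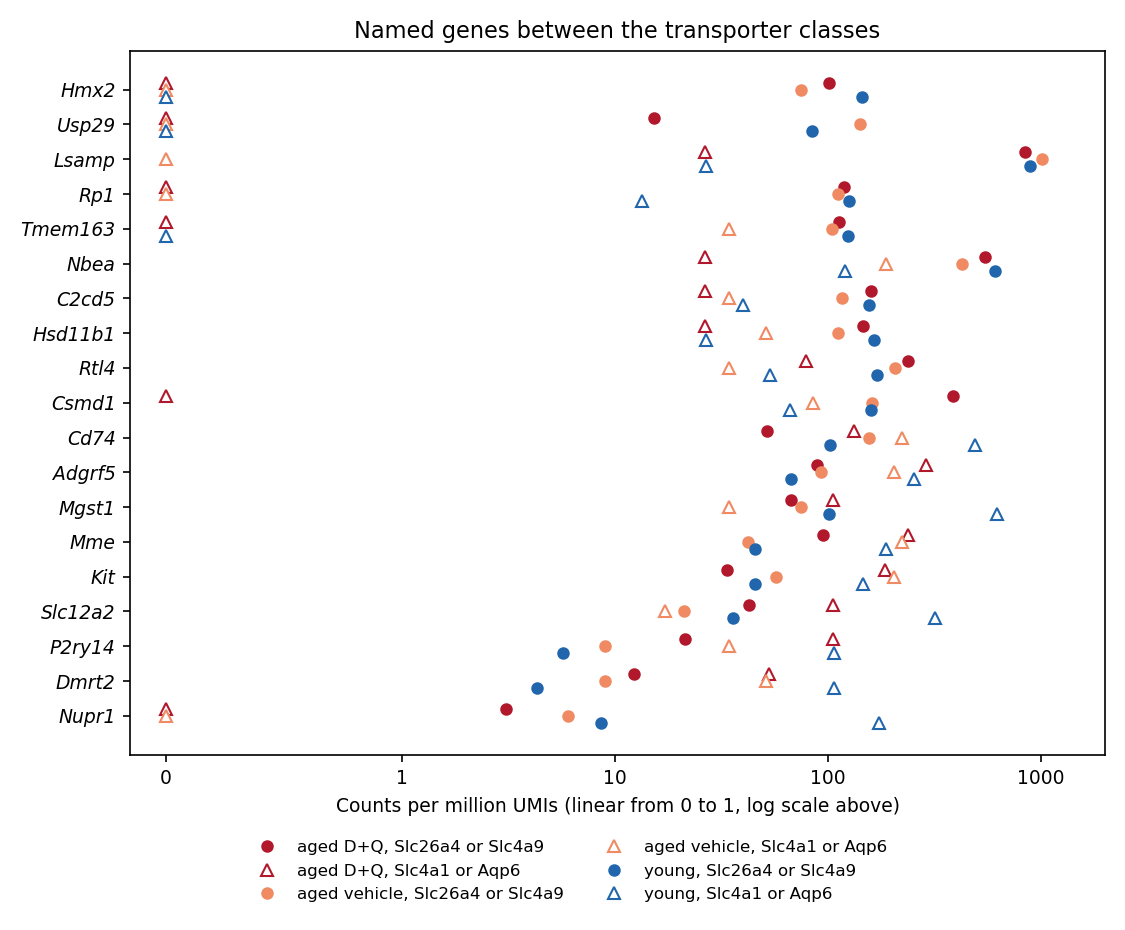
Levels in CPM, on an axis that is linear near 0 and logarithmic above, of 19 genes in the Slc26a4 or Slc4a9 positive class (filled circles) and the Slc4a1 or Aqp6 positive class (open triangles), with 1 point per library. Lsamp (841, 1011 and 894 CPM against 26.4, 0 and 26.7 CPM) and Kit (33.6, 57.0 and 45.6 CPM against 185, 205 and 147 CPM) show the 2 directions.

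The libraries were then set side by side within intercalated barcodes, as log2 ratios of CPM with 95% exact intervals and no test, over 9217 genes with at least 30 counts. Between the aged D+Q and the aged vehicle library, 309 genes (3.35%) were at least 2-fold higher and 467 (5.07%) at least 2-fold lower. Of 21 proton pump genes kept, 0 passed 2-fold in either direction, and their median log2 ratio was 0.14, beside -0.09 for all genes.

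Brd1, a chromatin reader, stood at 180 CPM in the aged D+Q library against 37.1 CPM in the aged vehicle library (log2 ratio 2.25, interval 1.53 to 3.11); it was also higher among all other barcodes, by 1.77, and had 2.28 in intercalated barcodes at the 25% mitochondrial limit. Ggh, gamma-glutamyl hydrolase, stood at 78.8 against 16.5 CPM (2.19, and 1.13 at the 25% mitochondrial limit), Cavin2 of caveolae at 63.1 against 14.4 CPM (2.05) and Hdgfl3 at 54.1 against 12.4 CPM (2.04). Aqp2, the vasopressin-regulated water channel of principal cells, stood at 653 against 157 CPM (2.05, interval 1.69 to 2.44), and had 0.45 at the 25% limit. Ednrb stood at 117 against 57.7 CPM (1.01, interval 0.33 to 1.74) and kept a ratio of 1.18 at the 25% limit. Brd1 and Ednrb thus differed as much among barcodes with few mitochondrial counts, and Aqp2 did not.

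Among lower genes, H2-Q7, a class I histocompatibility gene, stood at 6.76 CPM in the aged D+Q library against 57.7 CPM in the aged vehicle library (log2 ratio -2.90), Cbx7, of the Polycomb complex, at 6.76 against 49.5 CPM (-2.68) and Mrpl22, a mitochondrial ribosomal protein, at 6.76 against 45.3 CPM (-2.56). Mdm2, the ubiquitin ligase of p53, stood at 47.3 against 105 CPM (-1.13, interval -1.96 to -0.39), against -0.07 among all other barcodes, and had -1.16 at the 25% limit. Slpi, Lyz2 and Fn1 had -4.76, -4.73 and -3.04, but 1 barcode of the aged vehicle library held 73.8%, 94.4% and 90.9% of their counts there. The 13 mitochondrially encoded genes had a median of 0.77, and the 30 nuclear respiratory chain genes one of -0.07.

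Between the aged vehicle and the young library, 240 genes (2.6%) were at least 2-fold higher and 272 (2.95%) lower. Cyp2d12, a cytochrome P450, stood at 365 CPM in the aged vehicle library against 53.9 CPM in the young library (log2 ratio 2.75, interval 2.32 to 3.22), and all other barcodes had 2.24. Sntg1, a syntrophin, stood at 65.9 against 9.63 CPM (2.73), Myo15b at 47.4 against 10.6 CPM (2.13) and H2-Aa, a class II histocompatibility gene, at 90.7 against 23.1 CPM (1.96). Slpi and Lyz2 were higher as well, with most of their counts in 1 barcode, as given above. Per2, a clock gene, stood at 142 against 69.4 CPM (1.04, interval 0.54 to 1.53), with 0.62 in all other barcodes. Atp4a stood at 61.8 against 21.2 CPM (1.54, interval 0.70 to 2.41). Car12 stood at 591 against 926 CPM (-0.64, interval -0.84 to -0.45). The genes named as lower in the aged vehicle library, Sprr1a, Ly6d, Sptssb, Upk1a, Psca and Upk3a, are of urothelium or surface epithelium, and in the young library 1 barcode held 42.5 to 86.0% of the counts of each. The proton pump list had a median of 0.01, beside 0.06 for all genes.

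Between the aged D+Q and the young library, 192 genes (2.08%) were at least 2-fold higher and 363 (3.94%) lower. Scg5, a chaperone of secretory granules, stood at 76.6 CPM in the aged D+Q library against 5.78 CPM in the young library (log2 ratio 3.63, interval 2.46 to 5.27), with 0.87 in all other barcodes and 3.50 at the 25% limit; its counts there were spread over 24 of 107 barcodes. Stc1, the hormone stanniocalcin, stood at 101 against 8.67 CPM (3.49, and 1.09 at the 25% limit) and Aqp3 at 401 against 79.95 CPM (2.32, and 0.35 at the 25% limit). Car3, a carbonic anhydrase of fat and muscle, stood at 2.25 against 157 CPM (-5.54), and Cfd, the adipokine adipsin, at 2.25 against 52.0 CPM (-3.96); all other barcodes had -3.35 and -4.24. Of the proton pump list only Atp6ap2 passed 2-fold, at 214 against 104 CPM (1.04), and it had 0.30 at the 25% limit. The comparisons of the aged D+Q library share that library, and each has its own values.

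Several genes were highest in the aged D+Q library, as the principal cell genes were. Hsd11b2 stood at 628 CPM in the aged D+Q library, 315 CPM in the aged vehicle library and 169 CPM in the young library, and at 85.5, 49.8 and 66.4 CPM at the 25% mitochondrial limit. Rhbg stood at 191, 105 and 69.4 CPM, and at 49.6, 40.7 and 44.3 CPM at that limit. Aqp6 stood at 90.1, 43.3 and 38.5 CPM, and at 35.9, 31.7 and 29.2 CPM. For these 3 genes most of the difference between libraries sat in barcodes with more than 25% mt- counts. Rhcg, at 239, 86.6 and 123 CPM, had 110, 43.0 and 95.6 CPM at that limit, where the aged vehicle library remained lowest.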

How the data were processed

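Single-cell 3′ libraries of 3 mouse kidney preparations were deposited as matrices of raw UMI counts per gene and barcode, with 33696 genes; per the labels they were made with a droplet kit, and no source used here gives the aligner or the annotation. The submitters' processing notes name 2 mouse genome builds without saying what each was used for, so no coordinate of the files is used. The deposited counts ran from 1475 to 39347 UMIs per intercalated barcode, 443992 to 1038135 per library.

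The members and gene lists were chosen with earlier results of these data known. Barcodes over 50% mt- counts were left out. Scrublet (scanpy 1.11.5) called 0, 1 and 0 barcodes as doublets, under the 0.5% set as the mark that it had not worked. Doublets were therefore not removed and may be among the members. Barcodes with the highest Scrublet scores were left out as an alternative. Counts were summed per library and class. Classes were compared with edgeR 4.0.16 (quasi-likelihood test, TMM, library as block because both classes come from the same library, Benjamini-Hochberg adjustment; a mean of at least 10 CPM, or 20 counts between the 2 transporter classes) and tested on simulated data. DESeq2 1.42.0 was an alternative. Libraries were compared by ratio of CPM with 0.5 counts added and an exact conditional binomial interval, with no test. Genes were named by size of ratio, at fixed numbers per direction and minimum levels; list genes were named by size of ratio or by role. Leaving out barcodes over 3 times the library's median UMIs, and using Slc26a4 or Slc4a9 positive members alone between libraries, were chosen after seeing the data. Results for 2 genes are not reported here.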

Additional observations from a re-analysis of the deposited data

Results flagged for a closer look

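Among barcodes above the 50% mitochondrial limit, which no comparison used, 6 of 149 in the aged D+Q library passed the intercalated gate, or 4.03% (95% exact interval 1.49 to 8.56%), against 1.22% of 82 in the aged vehicle library and 1.04% of 385 in the young library.

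The 3 genes flagged here moved in opposite directions in intercalated and in all other barcodes between the same libraries. Other genes did so too, the gate genes Foxi1 and Slc26a4 between the aged libraries among them, and their number was not counted. The differences were not tested, since each group is 1 library. Mrpl22 had a log2 ratio of -2.56 (interval -5.13 to -1.01) between the aged D+Q and aged vehicle libraries in intercalated barcodes, and 0.24 in all other barcodes. Atp6v1a, the catalytic subunit of the proton pump, had 0.34 (624 against 493 CPM, interval 0.09 to 0.60) in intercalated and -0.06 in all other barcodes. Aqp3 had 2.32 (401 against 79.95 CPM) between the aged D+Q and young libraries in intercalated barcodes and -0.36 in all others, and 0.35 in intercalated barcodes with at most 25% mt- counts.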

How the results depend on the processing

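With a gate of 5 UMIs and 3 genes, the intercalated shares were 0.887% in the aged D+Q, 1.04% in the aged vehicle and 1.92% in the young library; after thinning to 1000 UMIs they were 0.639%, 0.588% and 1.27%, and without barcodes over 3 times the median depth 1.30% in the aged vehicle and 2.10% in the young library. The Slc26a4 or Slc4a9 share in the aged vehicle library was 100% with the stricter gate and 96.0% after thinning.

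Against all other barcodes, DESeq2 called 788 genes higher and 800 lower, total-count scaling 2656 and 728, and the fit with no replicate block 873 and 700; leaving out 1 library gave 886 to 1004 higher and 962 to 1106 lower. Against principal cell barcodes, DESeq2 called 81 and 12 and the fit with no replicate block 89 and 13; leaving out 1 library gave 118 to 175 higher and 60 to 117 lower, leaving out members in the principal cell gate 217 lower, and leaving out deep barcodes 178 lower. Slpi turned to -1.48 with the stricter gate and Gsta4, between -2.07 without the aged D+Q library and 0.34 without the young library, turned its sign. Between the transporter classes, DESeq2 called 6 higher and 2 lower, the fit with no replicate block 17 and 10, the stricter gate 8 and 1, leaving out members in the principal cell gate 11 and 2, and adding barcodes with both pairs by the larger pair 42 and 81; 6 were lower with no filter and 6 without deep barcodes. Leaving out 1 library gave 4 to 17 higher, 4 of them without the young library, and 2 to 25 lower, 25 of them without the aged vehicle library. Mgst1 had -2.16 without the aged vehicle library and turned to 0.18 without the young library and 0.20 without members in the principal cell gate, and Cd74 to 0.76 with the stricter gate. The block was the library, which both classes share. No paired analysis was possible between libraries because each group has 1 library.

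Between libraries, a minimum of 10 counts gave 792 genes higher and 1139 lower (aged D+Q against aged vehicle), 720 and 744 (aged vehicle against young) and 562 and 919 (aged D+Q against young). Adding 2 counts left 153 lower in the aged vehicle and 214 in the aged D+Q library against young, where leaving out members in the principal cell gate gave 219. List medians of aged D+Q against aged vehicle reversed with the stricter gate for the proton pump (-0.0501), ion channels (-0.0171), transcription factors (-0.0548, and -0.16 in Slc26a4 or Slc4a9 positive members alone), clock genes (0.12) and defence (-0.0803). Against young, the defence median of the aged vehicle library reversed to 0.0106 with the stricter gate and 0.0033 without deep barcodes; for aged D+Q, respiratory genes reversed to 0.11 and immediate early genes to 0.0421 without deep barcodes, mitochondrially encoded genes to -0.07997 at the 25% limit, clock genes to -0.0863 without high Scrublet scores and defence to -0.0696 with the stricter gate. The cause of these changes was not tested.

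Of the values for single genes and lists, 1507 kept direction and side under the alternatives, 148 lost their call, 8 gained one, 34 moved and 18 reversed. Of the shares of barcodes and the numbers of genes counted, 121 stayed near the main value and 46 moved. With 9 to 16 Slc4a1 or Aqp6 barcodes per library, and 1 of 25434 UMIs among the 9 of the aged vehicle library, depth limits that contrast.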
